A study of Drosophila melanogaster with 15 samples.

Results

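The small non-coding RNA genes in the lists from fly mushroom body nuclei were examined, taken as every gene whose symbol begins with snoRNA:, snRNA:, tRNA: or mir-. Of 7766 genes named in any of the 6 deposited lists, 199 were members, comprising 104 snoRNA, 52 mir, 39 tRNA and 4 snRNA genes. Where start sites could be inferred, members closer than 1000 bp to each other were linked, which placed the 199 genes at 162 loci. The other 7567 named genes are given beside them throughout.

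Mushroom bodies are paired brain structures in which flies store olfactory memories. Nuclei were purified from pooled heads of CS10 flies that expressed FLAG-KASH, a nuclear membrane tag, under the MBp-LexA driver, so every group carried these transgenes and the nuclei were those that the driver reaches. H3K9Ac and H4K16Ac, acetylated forms of histones H3 and H4 found at active genes, were each measured by ChIP-seq in 3 samples taken 1 day after spaced training and in 3 naive samples. Spaced training pairs an odour with electric shock repeatedly, with rest between sessions. CREB, a DNA-binding activator, and CRTC, its coactivator, had 1 sample each after spaced training, and a single naive input sample was sequenced. The labels gave no age for the flies. The lists hold no value or read total per library, so no difference could be retested, and the read totals in the study's supplement were not used here. A gene absent from a list was not thereby shown to lack the mark.

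Small nucleolar RNAs guide the chemical modification of other RNAs. Box C/D members direct 2′-O-methylation and carry names such as Me28S, H/ACA members direct pseudouridylation and carry names such as Psi28S, and those with Or in the name are orphans without an assigned target. In flies most are cut from introns of a host gene, often a ribosomal protein gene or a Uhg gene, whose spliced RNA is not known to encode a protein. Small nuclear RNAs form the core of the spliceosome, tRNAs carry amino acids to the ribosome and are made by RNA polymerase III, and microRNAs are processed from hairpins of longer transcripts and repress target mRNAs.

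Host genes were assigned by position in RefSeq's Release 6 annotation, which matched 190 of the 199 symbols. Of 95 matched snoRNA genes, 89 (93.7%) lay within another gene, 37 of them within a ribosomal protein gene and 17 within a Uhg gene. Of 52 mir genes, 49 (94.2%) lay within another gene, 23 of them within an annotated long non-coding or antisense RNA. For tRNA genes the share was 19 of 39 (48.7%), and 3 of the 4 snRNA genes lay within another gene. The 52 mir symbols stood for 49 RefSeq genes, because mir-276aS, mir-8S and mir-281aS matched the same genes as mir-276a, mir-8 and mir-281a.

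By symbol, a smaller share of small RNA genes than of other genes was named in the lists of increased acetylation, deposited as regions higher in spaced-trained than in naive flies. These lists are longer than the set of regions the study counts as significantly increased, so being listed is not a significance call. The increased H3K9Ac list named 22 of 199 members (11.1%, 95% Wilson interval 7.41 to 16.2), against 1743 of 7567 other genes (23.0%) and 22.7% of all named genes. The increased H4K16Ac list named 17 of 199 members (8.54%, interval 5.40 to 13.3), against 1302 of 7567 other genes (17.2%) and 17.0% of all named genes. The intervals cover counting error over genes only. Among mir genes 8 of 52 (15.4%) were in the H3K9Ac list and 10 (19.2%) in the H4K16Ac list, and among snoRNA genes 14 of 104 (13.5%) and 7 (6.73%) were. The H4K16Ac difference depended on naming, since taking the names of overlapping peaks gave 19.1% of members, against 18.7% of all genes. No tRNA or snRNA symbol occurred in either list, and tRNA symbols were used in the peak tables only.

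By symbol, the factor lists held different shares of the classes. The CREB list named 32 of 52 mir genes (61.5%, interval 48.0 to 73.5), 19 of 104 snoRNA genes (18.3%, interval 12.0 to 26.8), all 4 snRNA genes and no tRNA gene. Over all classes this was 55 of 199 members (27.6%), against 2481 of 7567 other genes (32.8%) and 32.7% of all named genes. With members counted by loci it was 34.0%, while the 32.7% remained a count of symbols. These units are unlike, so no direction can be read from that pair. Of the 32 mir genes 13 were in no other list, and a gene becomes a member by being listed. By position, as given further on, a CREB site lay within 500 bp of 8 of 32 distinct mir genes (25.0%) and 12 of 83 snoRNA genes (14.5%), with overlapping intervals. The CRTC list named 20 mir genes (38.5%), 12 snoRNA genes (11.5%) and 1 snRNA gene. In all this was 33 of 199 (16.6%), against 1638 other genes (21.6%) and 21.5% of all named genes. Both factor lists named 16 mir genes (30.8%) and 11 snoRNA genes (10.6%), while 18.7% of all named genes were in both.

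By symbol, the peak tables held fewer of the mir genes than of the snoRNA and tRNA genes. H3K9Ac peaks were named for 72 snoRNA genes (69.2%), 23 tRNA genes (59.0%) and 15 mir genes (28.8%), together 110 of 199 (55.3%), against 4999 other genes (66.1%) and 65.8% of all named genes. H4K16Ac peaks were named for 66 snoRNA genes (63.5%), 29 tRNA genes (74.4%), 13 mir genes (25.0%) and 1 snRNA gene, together 109 of 199 (54.8%), against 5803 other genes (76.7%) and 76.1% of all named genes. The tRNA symbols thus occurred in the peak tables alone among the 6 lists. Some hairpins carried one symbol in the peak tables (mir-276aS, mir-8S) and another in the other lists (mir-276a, mir-8), so names differ between lists and each locus was also examined by position. By position the mir share was not below the tRNA share. An H3K9Ac peak lay within 500 bp of 13 of 32 distinct mir genes (40.6%, interval 25.5 to 57.7), 8 of 27 tRNA genes (29.6%, interval 15.9 to 48.5) and 44 of 83 snoRNA genes (53.0%). For H4K16Ac peaks it was 13 of 32 (40.6%, interval 25.5 to 57.7), 10 of 27 (37.0%, interval 21.5 to 55.8) and 46 of 83 (55.4%). The mir and tRNA intervals overlapped for both marks. Over all genes the shares were higher, 75.1% for H3K9Ac and 80.0% for H4K16Ac.

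**Figure D1:**
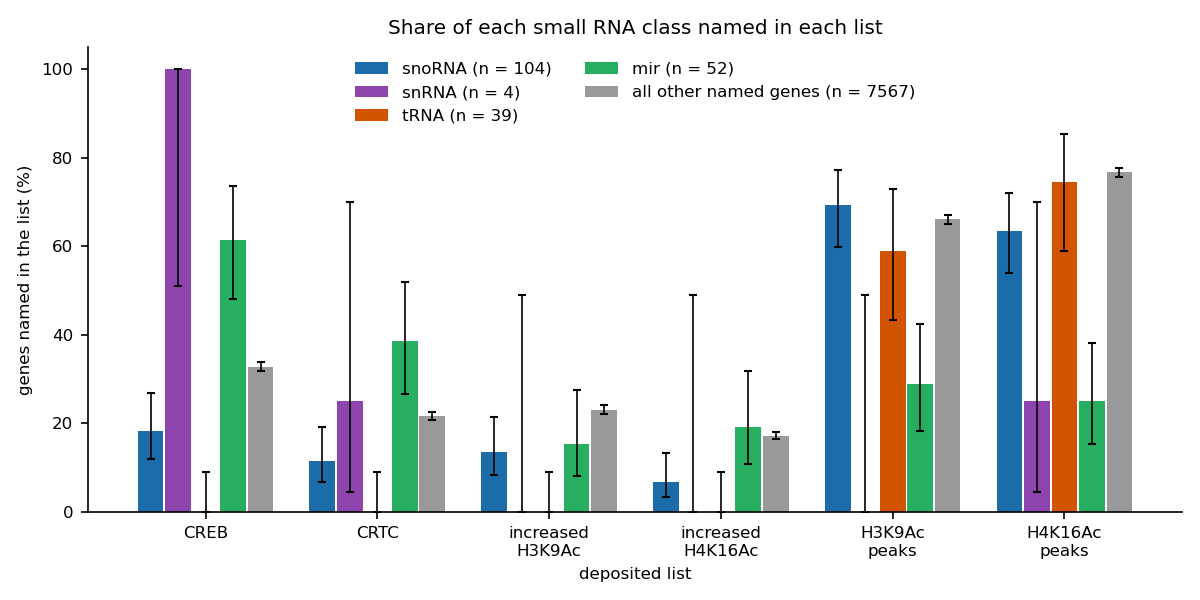
Percentage of genes (vertical axis) named in each of the 6 deposited lists (horizontal axis), for the 4 small RNA classes and for all other named genes, with 95% Wilson intervals as error bars. By symbol the mir genes stand at 61.5% in the CREB list and 28.8% in the H3K9Ac peak table, and tRNA genes are at 0 outside the peak tables, where their symbols were not used. By position within 500 bp these mir shares were 25.0% and 40.6%.

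The increased H3K9Ac list held 24 regions at 22 members, each region 400 bp wide and at most 500 bp from the start site it was named for. The named start site lay inside 13 of the 24 regions (54.2%), against 59.4% of all 1889 regions, and every region overlapped at least 1 H3K9Ac peak. Distances are signed, with negative values upstream of the start. Of the 22 members, 14 were snoRNA genes and 8 were mir genes. Of the 13 snoRNA genes with a known host 8 lay in ribosomal protein genes, against 37 of all 89 snoRNA members within another gene.

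The 8 snoRNA genes of ribosomal protein genes are taken first, as a group. Start sites lay inside the increased region at snoRNA:Psi28S-2996 in RpL5, snoRNA:Me28S-U2134b in RpL13A, snoRNA:Psi28S-1232 in RpL17, snoRNA:Psi18S-1295 in RpS20 and snoRNA:Or-aca2 in RpS6. The region was at 402 bp from the start of snoRNA:Psi28S-2648 in RpL36A and at -173 bp from that of snoRNA:Psi28S-3327a in RpS4. snoRNA:Me28S-G2173 in RpS16 had a pair of regions that overlapped each other, at -51 and -17 bp. None of these 8 hosts was itself named in the increased H3K9Ac list. Each region carries 1 gene name, so a region named for the snoRNA cannot also name its host. RpS6 was named in no list at all, and snoRNA:Or-aca2 also lies in CR33222, which was not in the increased H3K9Ac list. The strongest overlapping peaks of the group had scores of 5.47 at snoRNA:Me28S-U2134b, 4.90 at snoRNA:Or-aca2 and 4.13 at snoRNA:Psi28S-1232, and the weakest had 0.931 at snoRNA:Psi28S-2648, where the score is the peak caller's measure of strength without a fixed range.

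The other snoRNA genes of the list lay in hosts of varied function. snoRNA:Psi28S-3405a lies in Hrb98DE, which encodes an RNA-binding protein of the hnRNP family, and its region (dm3 chr3R:24426796-24427196) was at -54 bp from the start and 112 bp from an increased H4K16Ac region. Hrb98DE itself was named for 2 increased H4K16Ac regions (dm3 chr3R:24425546-24425946 and chr3R:24426284-24426684) and for none of H3K9Ac. snoRNA:Psi28S-3186 lies in kra, listed as exba, and exba was itself named in both increased lists. snoRNA:Psi28S-3308 lies in the splicing factor gene Sf3b3 and snoRNA:Me28S-U3344a in Stt3A, which encodes a catalytic subunit of oligosaccharyltransferase, and in both the start site was inside the region. snoRNA:Me18S-G1358a, in drn, had a pair of regions, 1 over its start (dm3 chr3R:5179677-5180077) and 1 at -445 bp (dm3 chr3R:5179144-5179544).

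snoRNA:Psi28S-612 stood apart by its acetylation level. Its region (dm3 chr3L:9422405-9422805) covered the start and overlapped H3K9Ac peaks in all 3 blocks of the peak table with a highest score of 13.3, against a median highest score of 2.62 over the 24 regions and 2.42 over all increased H3K9Ac regions. The symbol had no match in RefSeq, so no host is given.

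The 8 mir genes with increased H3K9Ac were mir-8, mir-274, mir-276a, mir-308, mir-317, mir-954, mir-990 and mir-3645. The start site lay inside the region at mir-317 (dm3 chr3R:5916721-5917121), which had no host, at mir-308, in the ribosomal protein gene RpS23, and at mir-954. mir-276a, known in flies for acting on olfactory memory through a dopamine receptor in mushroom body neurons, had its region at 32 bp (dm3 chr3L:10358360-10358760). The regions of mir-274 in CG32085, mir-990 in CG8910 and mir-3645 in Mlc-c, a myosin light chain gene, were at 165, 253 and 329 bp. That of mir-8, a regulator of growth through the fat body in flies, was at -412 bp, and the overlapping peaks were named mir-8S. mir-954 was the single member on chromosome 4, and peaks overlapping its region were named for the neighbouring gene mav, which encodes a TGF-beta type ligand.

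The increased H4K16Ac list held 17 regions at 17 members, 10 mir and 7 snoRNA genes. The start site lay inside 8 of the 17 regions (47.1%), against 52.9% of all 1428 regions. Of the 7 snoRNA genes 5 had a known host, with 1 in a ribosomal protein gene (snoRNA:Psi28S-1192d in RpS5a) and 2 in Uhg genes (snoRNA:Me18S-A1576 in Uhg2 and snoRNA:Psi28S-2949 in Uhg4). snoRNA:Me28S-U3344a in Stt3A was at -8 bp and snoRNA:gcl-a, in gcl, a gene known for germ cell formation, was at -6 bp. snoRNA:Psi28S-1153 and snoRNA:Me28S-U1230 had no host assigned, and their start sites were inside the regions. The highest overlapping peak score was 6.80 at snoRNA:Psi28S-2949, against a median of 2.31 over the 17 regions and 2.47 over all increased H4K16Ac regions.

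The mir genes of the H4K16Ac list were mostly in hosts with other functions. mir-1000 lies in msi, an RNA-binding protein gene, mir-967 in bun, a gene of the TSC22 family, mir-2b-2 in spi, which encodes a ligand of the EGF receptor, and mir-4980 in CanB2, a regulatory subunit gene of calcineurin. mir-4984 lies in the phospholipase gene PAPLA1, mir-4910 in CG3225 and mir-2493 in CG42788. mir-14, known in flies as a suppressor of cell death, mir-275 and mir-276a lie in annotated long non-coding RNAs. Regions were over the start site at mir-1000, mir-4910 and mir-4984, and at -209 bp for mir-275 (dm3 chr2L:7425185-7425585), -471 bp for mir-14 (dm3 chr2R:5440395-5440795) and -494 bp for mir-2b-2. bun and spi were themselves named in the same list.

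Distances from members' increased regions to factor sites were set beside those of all increased regions, on few regions and without a test. Of the 17 H4K16Ac regions of members, 7 (41.2%) lay within 200 bp of a CREB site, against 26.1% of all increased H4K16Ac regions, and 4 (23.5%) lay within 200 bp of a CRTC site, against 18.8%. Of the 24 H3K9Ac regions of members, 1 (4.17%) lay within 200 bp of a CREB site, against 22.0% of all increased H3K9Ac regions, and 1 (4.17%) within 200 bp of a CRTC site, against 13.1%. The 7 H4K16Ac regions were those of mir-14, mir-275, mir-967, mir-1000, mir-2493, snoRNA:gcl-a and snoRNA:Psi28S-1153. With CRTC sites that have a CREB site within 200 bp, the counts were 4 of 17 H4K16Ac regions (23.5%), against 15.5% of all, and 1 of 24 H3K9Ac regions (4.17%), against 10.5% of all.

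**Figure D2:**
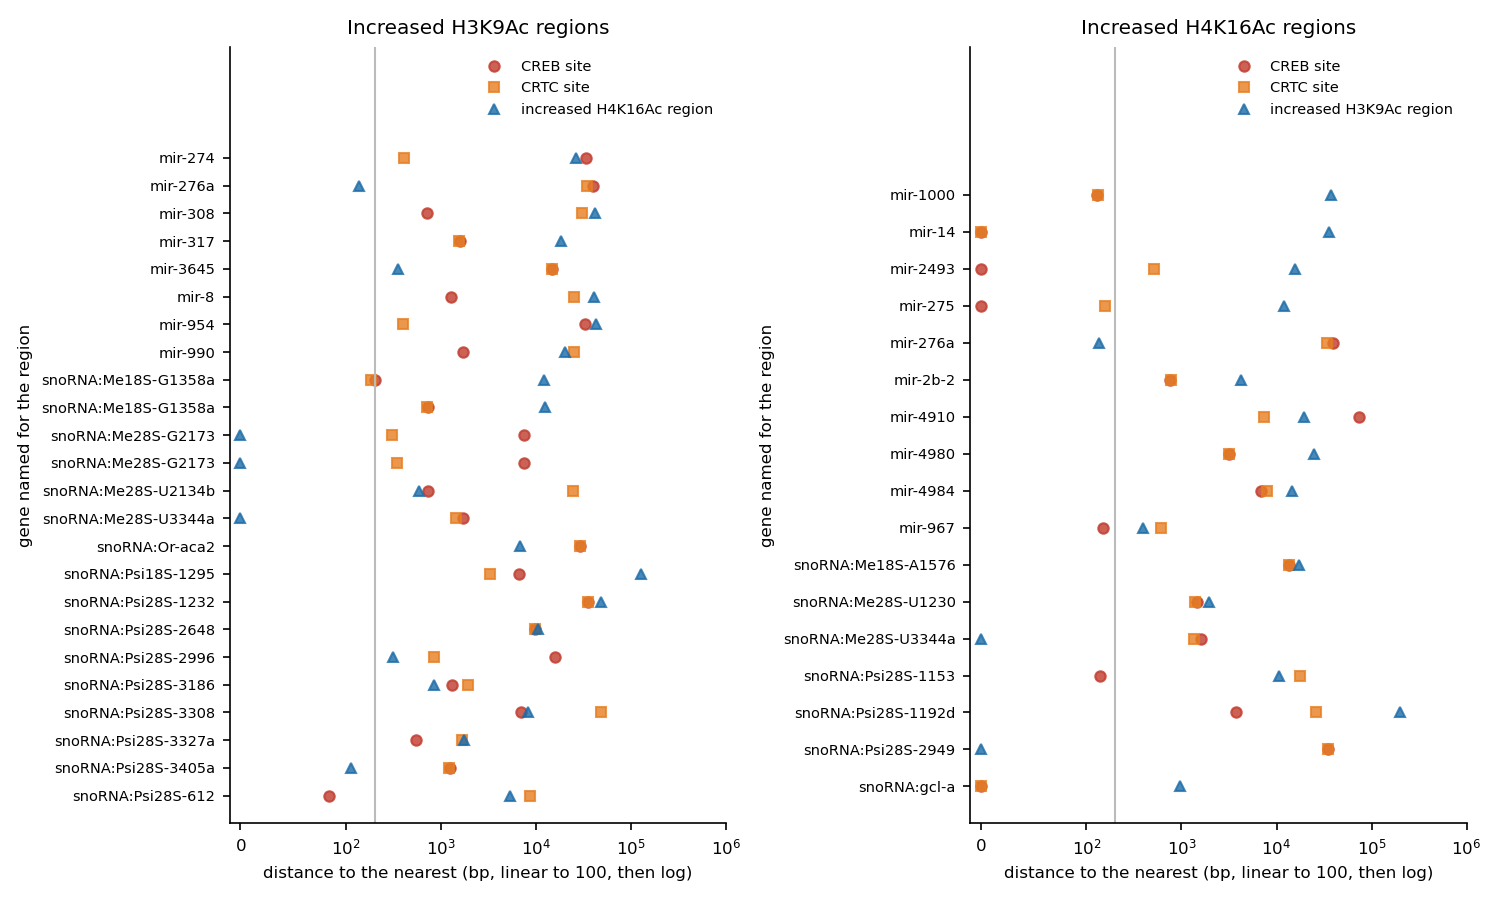
Distance from each increased region named for a small RNA gene (vertical axis, 1 row per region) to the nearest CREB site, CRTC site and increased region of the other mark (horizontal axis, bp, linear to 100 and logarithmic beyond), for H3K9Ac (left, 24 regions) and H4K16Ac (right, 17 regions). The vertical line marks 200 bp. A CREB site is left of the line for 7 of the H4K16Ac regions and for 1 of the H3K9Ac regions.

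By name, 2 members were in both increased lists, mir-276a and snoRNA:Me28S-U3344a (1.01%, against 5.68% of all named genes). By position, 7 of the 24 H3K9Ac regions of members (29.2%) lay within 500 bp of an increased H4K16Ac region, against 27.4% of all H3K9Ac regions. For H4K16Ac it was 4 of 17 (23.5%) within 500 bp of an increased H3K9Ac region, against 36.3% of all H4K16Ac regions. At several of these loci the marks were listed under different names. The RpS16 locus had H3K9Ac under snoRNA:Me28S-G2173 and H4K16Ac under RpS16 (dm3 chr2R:18493550-18493950), with overlapping regions. The Uhg4 locus had H4K16Ac under snoRNA:Psi28S-2949 (dm3 chr2R:4982872-4983272) and H3K9Ac under Uhg4 (dm3 chr2R:4982494-4982894), again with overlap. At the RpL5 locus H3K9Ac was listed under snoRNA:Psi28S-2996 and H4K16Ac under RpL5, 310 bp apart.

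The same division was seen over the 23 ribosomal protein genes that hold a member snoRNA. In the H3K9Ac list 8 of them had a region named for the snoRNA, 3 had one named for the host (RpL22, RpL27A and sta), 0 had both and 12 had neither. In the H4K16Ac list 1 had a region named for the snoRNA, 7 had one named for the host and 15 had neither. By symbol, these lists named 22.7% and 17.0% of all named genes. Each region carries 1 gene name, so a count over snoRNA symbols and a count over ribosomal protein symbols are not independent.

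Host genes were also looked up under their own symbols, those of listed members included. Of the 52 genes that overlap a mir member 27 were named in some list, of the 58 that hold snoRNA members 52 were, and of the 16 that hold tRNA members 13 were. The increased H3K9Ac list named 10 of the 27 hosts of mir genes (37.0%), 11 of the 52 of snoRNA genes (21.2%) and 4 of the 13 of tRNA genes (30.8%), against 22.7% of all named genes. The increased H4K16Ac list named 12 (44.4%), 15 (28.8%) and 4 (30.8%), against 17.0% of all named genes. CREB sites were named for 16 (59.3%), 23 (44.2%) and 12 (92.3%), against 32.7%, and CRTC sites for 16 (59.3%), 15 (28.8%) and 11 (84.6%), against 21.5%. These hosts are few and were not tested. jigr1, host of mir-92b, and Tlk, host of mir-4962, were in both increased lists while their hairpins were in neither. kis, host of mir-965, and hts, host of a snoRNA and of a tRNA gene, were in the H4K16Ac list.

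CREB sites were named 95 times for members and CRTC sites 62 times, of 4803 and 3002 sites. Each factor had 1 library here, so these values have no replicate check. The study describes replicate ChIP-seq of both factors and reports a different number of CRTC sites, and those replicates were not used here. Enrichment factors, the deposited ratio of ChIP to input read density, had a median of 5.71 at members' CREB sites, against 6.18 at all other sites, and of 4.10 at members' CRTC sites, against 4.67 at all other sites. Neighbouring sites often share 1 listed value, so that the 95 CREB sites carried 76 distinct values and the 62 CRTC sites carried 53.

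Sites of small RNA genes were farther from the named start site than those of other genes. The median distance of CREB sites was 2036 bp at members, against 347 bp at other genes, and 28 of 95 sites (29.5%) lay within 500 bp, against 56.7% of all CREB sites. The median distance of CRTC sites was 2614 bp at members, against 393 bp at other genes, and 10 of 62 (16.1%) lay within 500 bp, against 54.4% of all CRTC sites. By class, 15 of 57 mir CREB sites (26.3%) and 10 of 32 snoRNA CREB sites (31.2%) were within 500 bp. Beyond 500 bp, members had 44 upstream and 23 downstream CREB sites, against 907 and 1174 over all CREB sites. For CRTC members had 35 upstream and 17 downstream sites, against 595 and 774 over all CRTC sites. The start of a mir or snoRNA entry is the start of the annotated small RNA and not of its longer transcript.

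**Figure D3:**
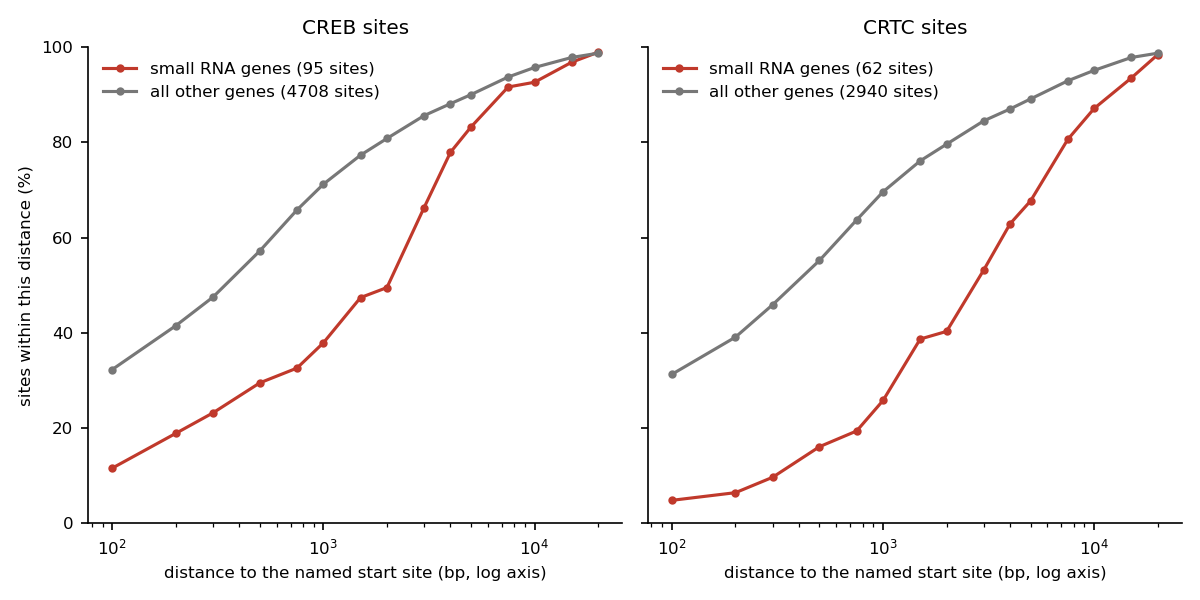
Percentage of CREB sites (left) and CRTC sites (right) that lie within a given distance of the start site they are named for (horizontal axis, bp, log scale), for small RNA genes and for all other genes. At 500 bp the small RNA genes stand at 29.5% for CREB and 16.1% for CRTC, against 57.2% and 55.2% for other genes, and the curves come together near 20000 bp.

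A CRTC site lay within 200 bp of 49 of 95 CREB sites of members (51.6%, interval 41.7 to 61.4), against 52.3% of all CREB sites. A CREB site lay within 200 bp of 44 of 62 CRTC sites of members (71.0%, interval 58.7 to 80.8), against 79.6% of all CRTC sites. By class, 17 of 21 snoRNA CRTC sites (81.0%, interval 60.0 to 92.3) and 25 of 39 mir CRTC sites (64.1%, interval 48.4 to 77.3) were paired. The members' shares were near those of all sites, and the intervals of the classes overlapped.

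The highest CREB enrichment among members was 21.7 at snoRNA:gp210-a, annotated in RefSeq as a Cajal body RNA within Gp210, a nuclear pore protein gene. The site (dm3 chr2R:1660645-1660726) lay at 7965 bp and ranked 43 among all CREB sites. It was followed by 18.8 at snoRNA:Me28S-A576, 16.8 at a pair of sites of mir-4943 in CG5953, 13.8 at snoRNA:CG43051-a, which lies within bun, and 13.6 at a pair of sites of mir-4978 in mam, a Notch pathway coactivator gene. The rest of the 10 highest members were mir-317 (13.0), mir-282 (12.9), mir-965 in the chromatin remodeller gene kis (12.0), snoRNA:Me28S-A30 (11.8) and snoRNA:skd-a in skd, a Mediator subunit gene (11.1). All 10 also had a CRTC site under their name. The 11.8 site of snoRNA:Me28S-A30 was 15606 bp from any CRTC site, and its single CRTC site (4.13) was at -17950 bp.

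CRTC enrichment was led by 8 of the same 10 members. The values were 10.5 at snoRNA:skd-a, which ranked 107 among all CRTC sites, 9.74 at snoRNA:Me28S-A576, 9.35 at mir-4943, 9.27 at snoRNA:CG43051-a, 7.77 at mir-4978, 7.09 at mir-282, 7.02 at snoRNA:gp210-a and 6.30 at mir-317. The other 2 were mir-4944 in the homeobox gene hth (5.88) and mir-276b (5.53). Several of these sites lay far from the small RNA they were named for, that of mir-4944 at -22736 bp and those of mir-276b at 5458 and 5780 bp. By number, snoRNA:skd-a had 5 CREB and 5 CRTC sites, and mir-317 had 3 CREB and 6 CRTC sites.

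The 4 snRNA genes differed in where CREB lay. snRNA:U6:96Aa, a gene for spliceosomal U6 within Esyt2, had a CREB site of 5.92 at -114 bp (dm3 chr3R:20382778-20382822). snRNA:U5:63BC had CREB sites of 3.34 at -111 and 84 bp. snRNA:U5:38ABb in sick had 1 site of 5.13 at 3432 bp. snRNA:U12:73B, the U12 gene of the minor spliceosome within Baldspot, had CREB sites of 5.88 and 5.71 at 6423 and 6928 bp, and CRTC sites of 4.08 and 4.34 at 6446 and 6957 bp. CREB was thus close to the start at U6:96Aa and U5:63BC, where the nearest CRTC sites were 8742 and 9326 bp from these CREB sites.

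Of the 199 members, 92 were in 1 list, 81 in 2, 16 in 3, 6 in 4 and 4 in 5. This count was not made for all named genes, so nothing particular to members can be read from it. It is by symbol, so tRNA genes could be in the peak tables only. The symbols mir-276a and mir-276aS, of the same RefSeq gene, were counted apart with 2 different lists each. The 4 members in 5 lists were mir-14, mir-275, mir-317 and snoRNA:Me18S-G1358a. mir-14 had 4 CREB sites (4.44 to 4.55) from -819 to 422 bp and 3 CRTC sites (3.22 to 3.80) from -816 to 281 bp, and its increased H4K16Ac region overlapped a site of each factor. mir-275 had CREB sites at -492 and -753 bp (8.42 each) and at -3072 bp (10.5), and CRTC sites at -1150 bp (4.09) and -764 bp (3.87). Its increased H4K16Ac region overlapped a CREB site and was 155 bp from a CRTC site. At mir-317 the increased H3K9Ac region covered the start, while the nearest CREB (13.0) and CRTC (6.30) sites were 1599 and 1552 bp from the region. At snoRNA:Me18S-G1358a the upstream increased H3K9Ac region was 202 bp from a CREB site (6.30) and 185 bp from a CRTC site (4.59). The region over its start was farther away, 735 bp from a CREB site and 718 bp from a CRTC site. An increased region therefore lay on factor sites at mir-14 and mir-275, while snoRNA:Me18S-G1358a had 1 region close to them and 1 farther off, and that of mir-317 was farther off.

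**Figure D4:**
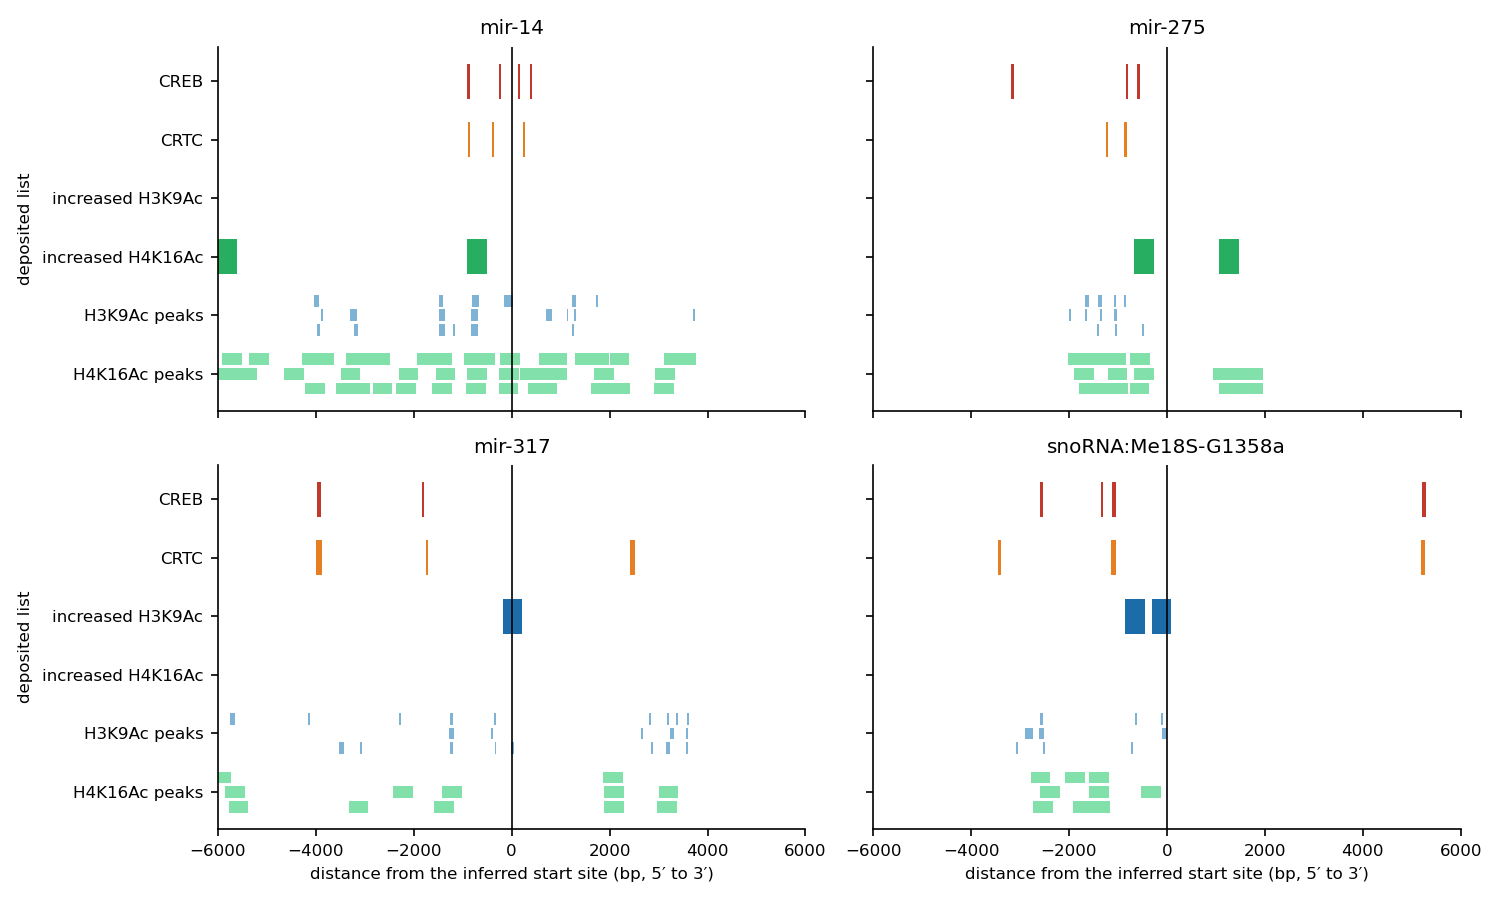
Intervals of the 6 deposited lists, under any gene name, within 6000 bp of the inferred start site of the 4 members in 5 lists (horizontal axis, distance in bp, transcription from left to right). For the peak tables the 3 rows are the 3 blocks of rows in the table, and intervals narrower than 40 bp are drawn 40 bp wide. The increased regions are of H4K16Ac at mir-14 and mir-275, where each panel also holds a further region under another name, and of H3K9Ac at mir-317 and snoRNA:Me18S-G1358a.

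The 6 members in 4 lists showed other combinations. mir-274 had increased H3K9Ac and a CRTC site (2.76) at -244 bp that was 32865 bp from any CREB site. mir-279, known in flies for its part in olfactory neurons and circadian output, had 3 CREB sites (4.68 to 4.97) and 4 CRTC sites (2.65 to 3.63). mir-9a, known for sensory organ development, had 3 CREB sites (5.61 to 6.16) and 1 CRTC site (4.00), and neither hairpin had an increased region under its name. snoRNA:Psi28S-2566 in CG3902 had overlapping CREB (4.20) and CRTC (3.92) sites at -40 and -84 bp. snoRNA:Me28S-A1322, in the translation elongation factor gene eEF1alpha1, had overlapping sites of CREB (4.02) and CRTC (2.56) at -122 and -131 bp. snoRNA:Me28S-U3344a, in both increased lists, was in neither factor list, and the nearest CRTC site was 1340 bp from its H4K16Ac region.

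Peaks under small RNA names took 373 of 23378 rows for H3K9Ac and 418 of 24152 rows for H4K16Ac. A peak can be listed under several genes, and at members 107 of 330 H3K9Ac peaks (32.4%) and 90 of 354 H4K16Ac peaks (25.4%) had more than 1 name, against 0.735% and 0.649% of all peaks. In the snoRNA class 96 of 189 H3K9Ac peaks (50.8%) were also named for a gene that is not a small RNA gene, and in the mir class 0 of 78 were. Of member rows, 339 for H3K9Ac (90.9%) and 394 for H4K16Ac (94.3%) were annotated as upstream, against 14.6% and 16.9% of other rows. The peaks were also farther from the start, with a median of 898 bp for H3K9Ac and 1174 bp for H4K16Ac, against 312 and 336 bp for other genes.

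The median peak score was 2.57 over members' H3K9Ac peaks, against 2.12 over other peaks, and 1.96 over members' H4K16Ac peaks, against 1.91. Each table consists of 3 blocks of rows that run through all chromosomes and carry no library name. A peak in all 3 blocks was found for 43 of 110 members with H3K9Ac peaks and for 50 of 109 with H4K16Ac peaks, against 3189 of 4999 and 3106 of 5803 other genes.

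The highest H3K9Ac score was at mir-92b, which in flies acts in neural stem cells, with best scores of 9.78, 14.0 and 8.22 in the 3 blocks. These peaks lay at -3681, -3647 and -3675 bp from the hairpin, and the 14.0 peak (dm3 chr3R:21473478-21473586) overlapped an increased H3K9Ac region named for the host jigr1 (dm3 chr3R:21473540-21473940) that covers the start site of jigr1. snoRNA:Psi28S-612 had best scores of 11.0, 13.3 and 7.99. snoRNA:Psi28S-2626 in RpS7 had 6.54, 9.88 and 7.32, all from peaks also named RpS7, and the 9.88 peak was named snoRNA:Psi18S-1377b as well. In the same way snoRNA:Psi28S-2949 had 8.53, 7.58 and 9.39, all from peaks also named Uhg4, and snoRNA:Me28S-A982a shared the 9.39 peak. mir-92b, snoRNA:Psi28S-612, snoRNA:Psi28S-2626 and snoRNA:Psi28S-2949 were high in every block, whereas snoRNA:Me28S-U3344a had no peak in the first block and 8.37 and 1.24 in the others.

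H4K16Ac scores were led by snoRNA:Psi28S-2949, with 5.08, 2.05 and 6.80 in the 3 blocks. snoRNA:Psi28S-2442b had 6.63, 5.70 and 5.81 and snoRNA:Psi28S-3186 had 6.63, 1.09 and 5.81. The 6.63 and 5.81 peaks were each shared by both snoRNA genes and also named exba, and the 5.70 peak was also named exba. The shared peaks lay at -2271 and -2296 bp from snoRNA:Psi28S-2442b, and at -2680 and -2705 bp from snoRNA:Psi28S-3186. snoRNA:Or-aca5 in Uhg4 had 6.35 in the first block, from a peak also named Uhg4, no peak in the next and 1.27 in the last. snoRNA:Me28S-U3344a had 6.14, 3.71 and 4.67, and mir-92b had 5.44, 5.56 and 5.19. mir-92b and snoRNA:Psi28S-2949 were thus among the highest members for both marks, with the scores of mir-92b close together across blocks.

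**Figure D5:**
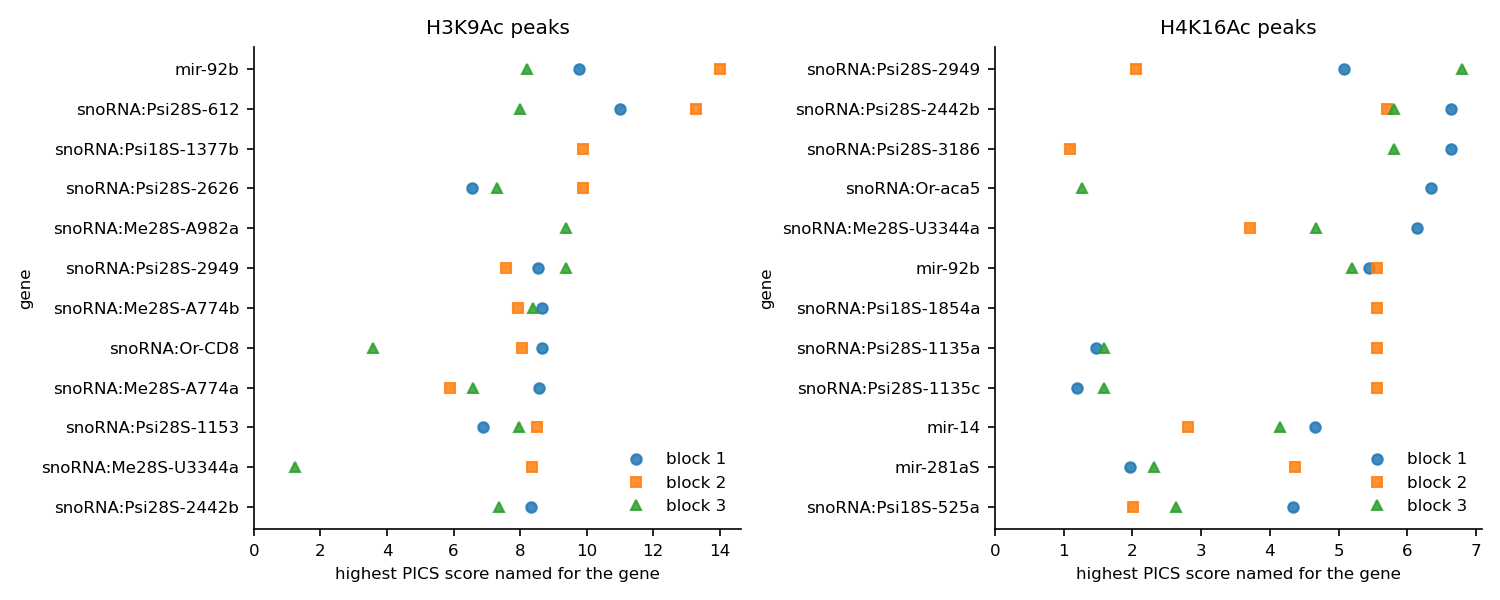
Highest peak score named for each gene in each of the 3 blocks of rows (symbols), for the 12 small RNA genes with the highest scores of H3K9Ac (left) and H4K16Ac (right). A missing symbol means no peak under that name in the block, and genes named for the same peak share its score. mir-92b leads H3K9Ac at 14.0 and snoRNA:Psi28S-2949 leads H4K16Ac at 6.80.

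To compare classes without regard to names, start sites in dm3 were inferred from the deposited distances for 147 members and 6606 genes in all, and the nearest listed interval under any name was taken. This comparison was chosen after the data had been seen. For the 22 members whose start could be inferred both from the peak tables and from the other lists, the results differed by a median of 42 bp, so distances from inferred starts and listed distances can differ by about this much. Within 500 bp of the start, an increased H3K9Ac region was found for 33 of 147 members (22.4%, interval 16.5 to 29.8), against 31.8% of all genes, and an increased H4K16Ac region for 27 (18.4%, interval 12.9 to 25.4), against 23.1%. Of the 33, 19 were listed under the member's own name, 2 under another symbol of the same gene, 4 under a different small RNA and 8 under another gene alone. Of the 27, it was 13, 1, 3 and 10. With symbols of 1 RefSeq gene counted once, the shares were 31 of 144 (21.5%) for H3K9Ac and 25 of 144 (17.4%) for H4K16Ac. A CREB site was within 500 bp for 25 members (17.0%), against 25.8% of all genes, and a CRTC site for 12 (8.16%), against 16.4%. An H3K9Ac peak was within 500 bp for 68 members (46.3%), against 75.1%, and an H4K16Ac peak for 71 (48.3%), against 80.0%. A start site can be inferred only for a gene named in a list, so these are shares of listed genes. A gene with only 1 listed interval gave a start site only if that interval covered the start. So mir-954 and snoRNA:Psi28S-2996 entered through the increased H3K9Ac region they are counted with. In the same way mir-4910, mir-4984 and snoRNA:Psi28S-1192d entered through their increased H4K16Ac region. Members whose only interval missed the start dropped out, whether it was close or far. Close examples are the CREB sites of snoRNA:Psi18S-176 at -43 bp, mir-4949 at -32 bp and snRNA:U6:96Aa at -114 bp. Far examples are the CREB sites of mir-2282 at 12518 bp and snoRNA:hts-a at -4387 bp, and the CRTC site of mir-184 at -7788 bp. The same rule held for all genes, and its effect on the shares was not tested.

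By class and position, with symbols of 1 gene counted once, increased H4K16Ac was found at 9 of 32 mir genes (28.1%, interval 15.6 to 45.4) and 15 of 83 snoRNA genes (18.1%, interval 11.3 to 27.7). Increased H3K9Ac was found at 6 of 32 mir genes (18.8%, interval 8.89 to 35.3) and 22 of 83 snoRNA genes (26.5%, interval 18.2 to 36.9). CREB lay within 500 bp of 8 of 32 mir starts (25.0%, interval 13.3 to 42.1) and 12 of 83 snoRNA starts (14.5%, interval 8.47 to 23.6). The intervals of the classes overlapped in each pair. These shares include members whose start was known only through the increased region itself, such as mir-4910 and mir-4984 for H4K16Ac, so the classes cannot be ranked from them.

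Position also placed tRNA genes in lists that hold none of their symbols. Of 27 tRNA genes with a start site, 3 (11.1%, interval 3.85 to 28.1) had an increased H3K9Ac region within 500 bp, against 31.8% of all genes. In these 3 the start lay inside the region. tRNA:Y1:85Aa, a tyrosine tRNA gene, was inside a region named for CG8036 (dm3 chr3R:4494613-4495013), with a CREB site of 4.93 at 19 bp and a CRTC site of 3.99 over its start. tRNA:CR30251, a histidine tRNA gene, was inside a region named for CG8490 (dm3 chr2R:8222498-8222898), and an increased H4K16Ac region of the same gene was 29 bp away. tRNA:CR30227, a tryptophan tRNA gene, was inside a region named for CG30122 (dm3 chr2R:14526792-14527192), with a CREB site of 3.73 at 262 bp. CREB sites also lay 425 bp from tRNA:V3b:90BC (5.60), a valine tRNA gene, and 485 bp from tRNA:CR31130 (7.58), a leucine tRNA gene in jar. In all, 4 of the 27 tRNA genes (14.8%) had a CREB site within 500 bp, against 25.8% of all genes. Among tRNA genes the highest peak score was 6.57 for H3K9Ac, named for tRNA:CR31971, an aspartate tRNA gene within tkv, with 6.18 and 4.77 in the other blocks. The 6.57 and 6.18 peaks lay far upstream, at -4767 and -4769 bp. The nearest H3K9Ac peak under any name was 3587 bp from the start of this tRNA gene.

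By chromosome, 25 of 199 members were on X (12.6%), against 16.6% of all named genes, and 55 on 2R (27.6%), against 20.7%. The snoRNA class had 18 of 104 on X (17.3%), and the tRNA class had 1 of 39 on X (2.56%) and 15 of 39 on 2R (38.5%).

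Genes of the pathways that make or use these RNAs were also looked up, against 22.7% of all named genes in the increased H3K9Ac list and 17.0% in the increased H4K16Ac list. Of 8 snoRNP protein genes, of which 3 were named in any list, 1 (Nop56, a box C/D core protein) was in the increased H3K9Ac list and 1 (CG7637) in the H4K16Ac list. Of 13 Sm and snRNP protein genes, of which 9 were named in any list, 6 were in the H3K9Ac list, among them SmD2 and SmG, and 4 in the H4K16Ac list, among them SmG and snf. All 6 microRNA processing genes had peaks of both marks, and loqs, which encodes a Dicer partner, was in the increased H3K9Ac list, while AGO1 had 3 CREB and 3 CRTC sites. Of 5 RNA polymerase III and tRNA processing genes, of which 3 were named in any list, 0 were in either increased list or either factor list. Of the 20 tRNA synthetase symbols (Aats-) that occur in the lists, 9 were in the H3K9Ac list and 4 in the H4K16Ac list. Of the 6 Uhg symbols that occur in the lists, Uhg4 and Uhg5 were in the H3K9Ac list and 0 in the H4K16Ac list, although snoRNA genes of Uhg2 and Uhg4 were.

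Markers of cell types were checked in the peak tables. Of 10 mushroom body markers, 7 had H3K9Ac and 7 had H4K16Ac peaks, and of 4 neuron markers 3 and 2 did. Of 4 glial markers 0 and 1 did, and of 5 photoreceptor markers 1 and 2, while 0 of 3 muscle and 0 of 4 fat body markers had a peak of either mark. The part of photoreceptor and glial nuclei in the small RNA peaks was not tested. Many members belong to families of near-identical copies, such as the snoRNA:Psi28S-1135 genes of RpS5a and the tRNA genes, and poorly mapping reads had been discarded, so values at these copies are uncertain.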

How the data were processed

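Per the labels and the study's methods, ChIP-seq reads were mapped to dm3 with LifeScope (histone marks) or CLC Genomics Workbench (CREB, CRTC), and peaks were called against input DNA by PICS and ERD. The authors deposited, for each interval, its position, gene name, distance to the start site and a false discovery rate (q-value), with an enrichment factor (ratio of ChIP to input density) for CREB and CRTC sites and a PICS score in the peak tables. The increased lists also hold the authors' own fold of spaced-trained over naive samples, its SD and a p-value, which were neither used nor printed, so the planned median fold was not computed. Read totals were not used here, so depth per value is not given.

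Members and gene lists were chosen with earlier results of these data known. Shares are given with 95% Wilson intervals and without tests, since the planned edgeR test needs counts per library. Start sites were inferred from the signed distances, requiring agreement within 2 bp, which 5852 of 5858 gene and arm pairs with at least 2 peak rows met. Inference and interval distances were tested on simulated data. RefSeq Release 6 gave names and hosts only. Named were every member in an increased list, the 10 highest CREB and CRTC members, the 5 highest peak scores per mark, members in at least 4 lists, the chromosome 4 member and hosts. tRNA genes, related genes and loci beyond this rule were chosen after their values were seen. Python 3.11.15, pandas 2.3.3 and scipy 1.17.1 were used.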

Additional observations from a re-analysis of the deposited data

How the results depend on the processing

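The lists limit these results to shares of named genes, with no spread between libraries. No paired analysis was possible because the lists hold no values per library, and leaving out replicates was not run for the same reason. The planned fold limit and median fold were not run, since those columns hold the authors' own comparison. Naming increased regions by the overlapping peak gave 19.1% of members for H4K16Ac, against 18.7% of all genes, which turned the direction of the difference. Counting members by loci gave 34.0% for CREB, 20.4% for CRTC, 13.6% for increased H3K9Ac and 10.5% for increased H4K16Ac. The other genes were not grouped into loci, and 32.7% of all genes were in the CREB list by symbol. These units are unlike, so no turn of direction can be read from the locus counts. An enrichment factor of at least 5 left 16.1% of members for CREB and 6.53% for CRTC, against 21.2% and 9.80% of all genes. A CRTC site lay at 38.9% of CREB sites of members by direct overlap and at 64.2% within 1000 bp, against 38.5% and 64.1% of all CREB sites. A peak in at least 2 blocks left 35.2% of members for H3K9Ac and 38.7% for H4K16Ac, against 54.4% and 60.2% of all genes. By start site within 500 bp, an alternative chosen after seeing the data, shares were 22.4% for increased H3K9Ac, 18.4% for increased H4K16Ac, 17.0% for CREB, 8.16% for CRTC and 46.3% for H3K9Ac peaks. The cause of these shifts was not tested.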
